A study of Mus musculus with 7 samples.

Results

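This account covers 10 genes of T cells and intraepithelial lymphocytes, measured in whole liver on day of life 1 in male pups of the C57BL/6J strain. Livers of 3 wild type mice, age-matched littermates, were compared with livers of 4 glycerol kinase knockout mice, with 1 Affymetrix Mouse 430 2.0 array for each liver. RNA came from each liver separately, so each array stands for 1 animal. Glycerol kinase phosphorylates glycerol, and the submitters describe knockout pups of this age as still without signs of disease. The genes are Trgv4, Itgae, Itgb7, Cd3e, Cd3g, Cd3d, Cd8a, Thy1, Il2rb and Gzma. They were chosen by their names together with measured values: the low knockout signals of Trgv4 and Itgae in this same comparison led to the group, and general T cell genes were set beside them. Differences between knockout and wild type in these genes are therefore given as a description, without a p-value. A probe set, a group of short probes whose signals are summarised into 1 intensity, was included where the platform annotation gave one of these genes as its only symbol, and 18 of 45101 probe sets met this. They stand for 10 of the 18193 gene symbols that the array annotation gives alone.

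A T cell recognises its target through a receptor of alpha and beta or of gamma and delta chains, which reaches the cell surface only together with the CD3 proteins. The gamma chain is assembled from variable, joining and constant segments, and T cells with gamma delta receptors are the first to leave the fetal thymus. Intraepithelial lymphocytes are T cells that lodge among epithelial cells, many with the integrin made of the chains that Itgae and Itgb7 encode, whose ligand is E-cadherin. Newborn liver is also a site of blood formation, so bulk RNA of it holds transcripts of many blood cell types. In such bulk samples, fewer cells of a type and less RNA per cell cannot be told apart.

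The values are array intensities, scaled by the submitters so that the trimmed mean of every array was 500.003. Array medians lay between 92.7 and 108.3, and between 35.5% and 39.5% of probe sets read less than 50, a range in which noise makes up much of the signal. The ratio of 3' to 5' control probe sets was highest in knockout 3 for all 4 control genes, for example 11.1 against 7.22 to 8.24 in the other arrays for the transferrin receptor. The liver label was borne out by transcripts of hepatocytes, whose 14 measured markers summed to between 353105 and 455501 per array. Signals of several chains that define a T cell were low on every array: none of the probe sets for Cd3d, Cd3e, Cd3g, Cd247, Tcra, Cd4 and Cd8b1 exceeded an intensity of 60.7. Cd247 encodes the zeta chain of the receptor complex and Cd8b1 the beta chain of the CD8 coreceptor. These genes were named here after their values were seen, and Cd8a and Trgv4 were brighter, at up to 148.0 and 463.2.

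The start regions of the Cd3 genes are shown because these neighbours on chromosome 9 encode parts of 1 complex. Their values lay near the floor of the array. Neither a difference between the chains nor a link of their values to these sequences was tested. Cd3g and Cd3d are read in opposite directions from start sites 1355 bases apart. The sequences are the 250 bases before each start site, from RefSeq with build GRCm38.p6, and run 5′ to 3′ on the strand of the gene. Capitals mark the E box CACCTG (or CAGGTG), a site type bound by E proteins of the T lineage, and the ETS core ACTTCC (or GGAAGT), searched on both strands.
Cd3g, chr9:44980432-44980681, minus strand: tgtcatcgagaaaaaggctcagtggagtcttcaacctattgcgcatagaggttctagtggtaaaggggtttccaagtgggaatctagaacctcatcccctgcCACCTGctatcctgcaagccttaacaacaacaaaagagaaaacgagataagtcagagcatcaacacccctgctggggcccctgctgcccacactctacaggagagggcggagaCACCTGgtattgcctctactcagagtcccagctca
Cd3d, chr9:44981536-44981785, plus strand: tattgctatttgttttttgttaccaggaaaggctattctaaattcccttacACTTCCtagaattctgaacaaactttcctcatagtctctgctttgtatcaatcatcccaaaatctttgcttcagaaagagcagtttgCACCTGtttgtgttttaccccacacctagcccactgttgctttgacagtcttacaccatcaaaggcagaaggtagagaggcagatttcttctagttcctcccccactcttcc
Cd3e, chr9:45009612-45009861, minus strand: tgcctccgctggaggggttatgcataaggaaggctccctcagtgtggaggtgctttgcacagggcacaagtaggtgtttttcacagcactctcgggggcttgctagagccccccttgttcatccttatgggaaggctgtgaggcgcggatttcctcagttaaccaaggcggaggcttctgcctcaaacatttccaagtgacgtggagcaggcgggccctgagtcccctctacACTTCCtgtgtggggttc

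The E box occurred at 2 places before Cd3g, beginning 148 and 35 bases ahead of the start site, and at 1 place before Cd3d, 112 bases ahead. It was not in the window of Cd3e, which held the ETS core, as did that of Cd3d. Over 32851 promoter windows of the same length, 17.2% held the E box and 19.7% the ETS core. The RUNX core TGTGGT (or ACCACA) was in 14.0% of all windows and in none of these. The motifs do not overlap each other, and they were chosen with the sequences in view. RefSeq windows were also held for Cd8a, Gzma and Itgb7, and that of Gzma, like those of Cd3g and Cd3d, held the E box. Entries for Trgv4, Itgae, Thy1 and Il2rb were not used here.

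Trgv4, a variable segment of the gamma chain on chromosome 13, gave far lower signals in knockout liver on 2 of its 3 probe sets. On probe set 1450521_a_at the wild type arrays read 298.8, 351.8 and 269.0. The knockout arrays read 41.8, 56.5, 48.8 and 26.0. All 4 knockout livers lay below all 3 wild type livers, with a gap from 56.5 to 269.0. The means were 306.5 ± 41.9 (SD, n = 3) and 43.3 ± 13.0 (SD, n = 4), and the log2 difference, taken on log2(intensity + 16) here and throughout, was -2.46 ± 0.24 (SE). That scale understates changes of dim probe sets: with an offset of 1 or 64 the difference was -2.84 or -1.79. As 3 of the 4 knockout values lie under 50, no fold is given.

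Probe set 1422189_x_at, of a type whose probes can match other transcripts as well, read 376.8, 463.2 and 176.6 in wild type. In knockout it read 22.6, 78.5, 82.1 and 35.3. Wild type 3 was the lowest of its group on this probe set and still stood above every knockout liver. The log2 difference was -2.34 ± 0.40 (SE), with means of 338.9 and 54.6. The remaining probe set, 1427802_a_at, read between 0.4 and 3.9 on the 7 arrays and its groups overlapped, so it carried no measurable signal in either group. The measured neighbours of Trgv4 on chromosome 13 were dim as well: Amph, which encodes amphiphysin, read 2.0 to 18.6, and Trgv1, another variable segment, 7.9 to 49.2. Joining and constant segments of the gamma chain were not analysed here.

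Itgae, the alpha chain of the integrin of intraepithelial lymphocytes and a gene of chromosome 11, was lower in knockout on both of its probe sets. On 1447541_s_at, of a type that can match more than 1 transcript, the wild type arrays read 828.9, 1025.3 and 1614.7. The knockout arrays read 528.1, 180.5, 226.1 and 238.4. Knockout 1 was the highest of its group and wild type 1 the lowest of its own, and a gap remained between them. Means were 1156 ± 409 (SD, n = 3) and 293.3 ± 158.5 (SD, n = 4), 3.94-fold lower in knockout, with a log2 difference of -1.99 ± 0.34 (SE).

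On 1449216_at, Itgae read 440.4, 502.1 and 646.8 in wild type and 372.9, 256.8, 155.1 and 220.3 in knockout. The order of the wild type livers was the same on both probe sets, and knockout 1 was again the knockout liver nearest to wild type. The log2 difference was smaller here, at -1.08 ± 0.27 (SE), and the means differed 2.11-fold. Haspin, a kinase gene of dividing cells that lies inside the body of Itgae, read 127.9 to 203.5 in wild type and 94.3 to 259.8 in knockout. Its groups overlapped, with a log2 difference of 0.09 ± 0.30 (SE; adjusted p = 0.901 with limma). Ncbp3, the nearest measured gene on one side, had 2 probe sets at -0.25 and -0.18 (adjusted p = 0.365 and 0.633 with limma). On 1 of them its groups did not overlap, with 885.7 to 1022.3 in wild type and 660.2 to 883 in knockout. P2rx5 on the other side read 4.9 to 32.3 on all arrays.

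**Figure D1:**
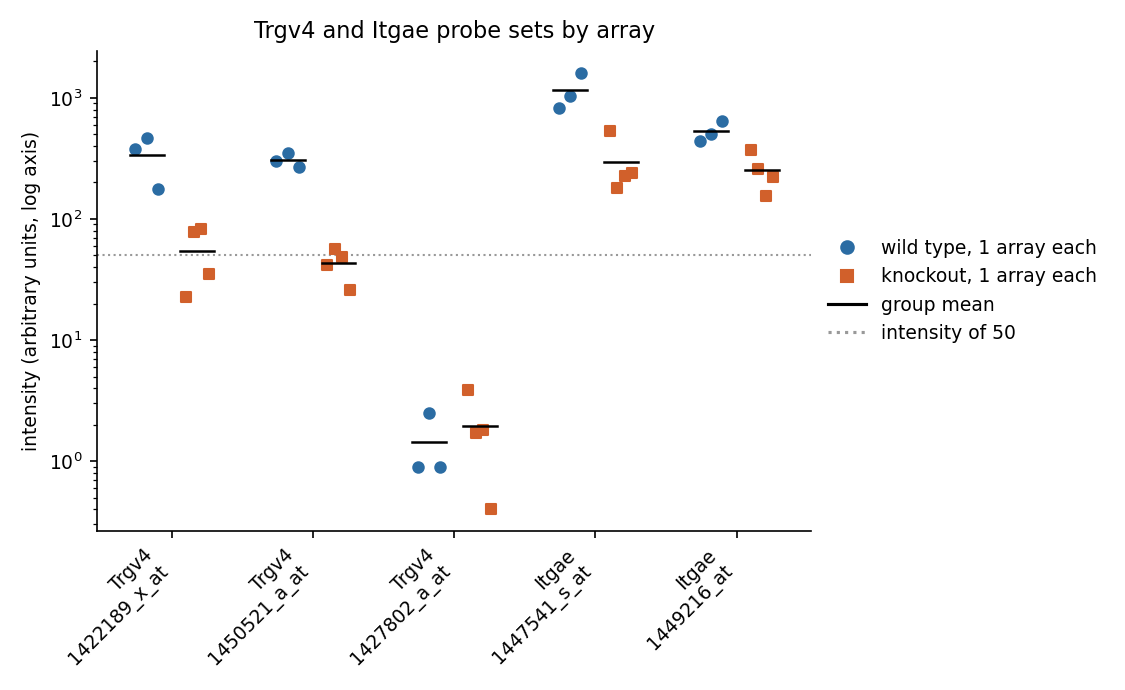
Intensity of each Trgv4 and Itgae probe set on a log axis, with 1 point per array (circles, 3 wild type livers; squares, 4 knockout livers), bars at the group means and a dotted line at an intensity of 50. On 4 of the 5 probe sets every knockout point lies below every wild type point, and Trgv4 1427802_a_at lies at 0.4 to 3.9 throughout.

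Itgb7, the beta chain that pairs with the product of Itgae, did not show a difference of that size. Its probe set 1418741_at read 526.0, 356.3 and 423.1 in wild type and 318.7, 416.5, 316.2 and 311.1 in knockout. Knockout 2 lay within the wild type range, and the other knockout livers lay just below it. The log2 difference was -0.33 ± 0.19 (SE). Cdh1, the gene of the ligand E-cadherin, read 1924 to 2818 in wild type and 2595 to 3332 in knockout (log2 difference 0.27, adjusted p = 0.349 with limma). Cdh1 was named for this role after its values were seen.

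The CD3 chains were all near the floor of the array. Cd3e, the epsilon chain, read 54.8, 60.7 and 58.3 in wild type and 19.5, 22.9, 20.2 and 22.0 in knockout. The groups were tight and far apart for so dim a probe set, with means of 57.9 ± 2.97 and 21.2 ± 1.57 (SD, n = 3 and 4). Its log2 difference of -0.99 ± 0.23 (SE) depends on the offset, and was -1.41 with an offset of 1 and -0.52 with one of 64. Cd3g, the gamma chain of CD3, read 22.6, 47.7 and 30.2 in wild type and 19.6, 6.9, 15.3 and 12.6 in knockout.

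For Cd3g the groups did not overlap either, although 19.6 in knockout 1 stood close to 22.6 in wild type 1. The log2 difference was -0.73 ± 0.27 (SE), and with offsets of 1 and 64 it was -1.26 and -0.32. Cd3d, the delta chain, read 16.3, 9.9 and 33.3 in wild type and 9.8, 49.5, 10.5 and 26.1 in knockout. Here the groups overlapped widely, and the log2 difference was 0.10 ± 0.38 (SE). The groups were thus separate for Cd3e and Cd3g and not for Cd3d. Whether the 3 chains differ from each other was not tested, and all of their knockout values were under 50.

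Cd8a, the alpha chain of the coreceptor of cytotoxic T cells, had 5 probe sets, and their groups overlapped in every case. The brightest, 1440164_x_at, read 148.0, 132.1 and 142.1 in wild type and 102.8, 144.4, 112.8 and 65.9 in knockout. Its log2 difference was -0.40 ± 0.24 (SE). The other 4 read from 4.4 to 89.4, with log2 differences of 0.39, 0.19, 0.02 and -0.20, so the probe sets of this gene did not share a direction.

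Thy1, a surface protein of T cells that is also made by nerve cells and fibroblasts, read 43.0, 93.3 and 64.7 in wild type. In knockout it read 55.6, 96.6, 163.6 and 52.6. The highest value was that of knockout 3, and without this array the log2 difference of 0.31 ± 0.38 (SE) became 0.03.

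Il2rb encodes the beta chain of the receptors for interleukins 2 and 15, on which intraepithelial lymphocytes and natural killer cells depend. Probe set 1417546_at read 157.9, 103.3 and 119.8 in wild type and 117.4, 87.0, 96.3 and 52.5 in knockout. The groups overlapped, since wild type 2 lay below knockout 1, and the log2 difference was -0.48 ± 0.26 (SE). On the dimmer 1448759_at, knockout 3 read 93.6 and the other knockout livers 13.5 to 19.4, against 14.9 to 59.7 in wild type. Its log2 difference of -0.28 ± 0.50 (SE) became -0.72 without knockout 3.

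Gzma, a protease of cytotoxic granules, was among the members with a clear signal. It read 323.4, 1476.9 and 1292.8 in wild type and 679.8, 527.0, 466.9 and 508.9 in knockout. Wild type 1 lay below every knockout liver, whereas wild type 2 and 3 lay above all of them. The log2 difference of -0.65 ± 0.43 (SE) varied with the wild type arrays: without wild type 1 it was -1.33 and the groups did not overlap, and without wild type 2 or 3 it was -0.26 or -0.36. Trgv4 and Itgae did not follow this pattern, since wild type 1 stood above all knockout livers for both.

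**Figure D2:**
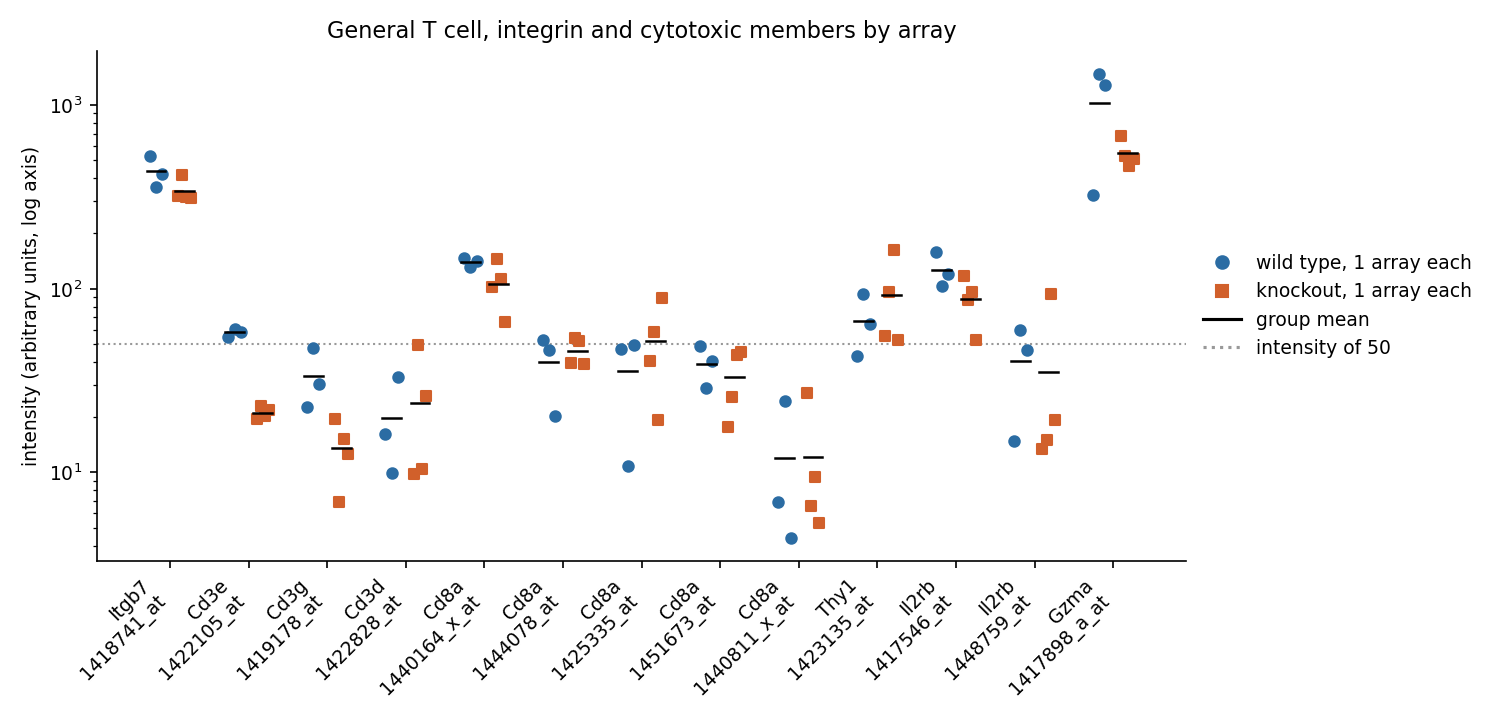
Intensity of the 13 probe sets of the other 8 genes on a log axis, with points, bars and dotted line as in the plot of Trgv4 and Itgae. The groups are separate only for Cd3e and Cd3g, both at or below 60.7, and wild type 1 lies below all knockout livers for Gzma.

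A filter that keeps probe sets with a mean log2(intensity + 16) above the median of all, 6.83, left 22518 probe sets for the fit across the array. Of the 18 member probe sets 8 passed it, from 6 genes, and 10 did not, among them all those of Cd3d, Cd3e, Cd3g and Thy1. Just above the limit stood Il2rb 1417546_at at 6.87 and Trgv4 1450521_a_at at 6.92, and just below it Thy1 at 6.51. In that fit (limma, Benjamini-Hochberg adjusted p under 0.05), 3 member probe sets were called, all lower in knockout: both bright ones of Trgv4 and Itgae 1447541_s_at. Among all tested probe sets 1.89% were called lower. Without the filter the same 3 were called, against 0.406% of all. Since these calls led to the choice of the genes, nothing is read from the counts.

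Over all member probe sets, 12 were lower and 6 higher in knockout, with a median log2 difference of -0.36 against -0.03 over all probe sets. The groups did not overlap, with knockout lower, in 6 of the 18, against 8.11% of all probe sets, and in 4 of the 8 that were tested, against 11.8%. These 6 belong to Trgv4, Itgae, Cd3e and Cd3g, and the 4 tested ones are those of Trgv4 and Itgae, whose low knockout values led to the choice, so nothing is read from these counts either. Their groups were also separate after median scaling and after quantile normalization of the arrays. Without knockout 3, the array of the highest 3' to 5' ratios, the differences of Trgv4 1450521_a_at and Itgae 1447541_s_at were -2.52 and -1.91. For Itgae 1447541_s_at, leaving out 1 array moved the log2 difference between -2.30 (without knockout 1) and -1.72 (without wild type 3), and without wild type 3 it was no longer called. Trgv4 1450521_a_at ranged from -2.57 to -2.31. The other bright Trgv4 probe set ranged from -2.73 to -2.07. Both passed the filter only through their wild type values, and fell below it without wild type 1 or 2, and the first also without wild type 3. Itgae 1449216_at, which was not called, was called without knockout 1, at -1.28.

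**Figure D3:**
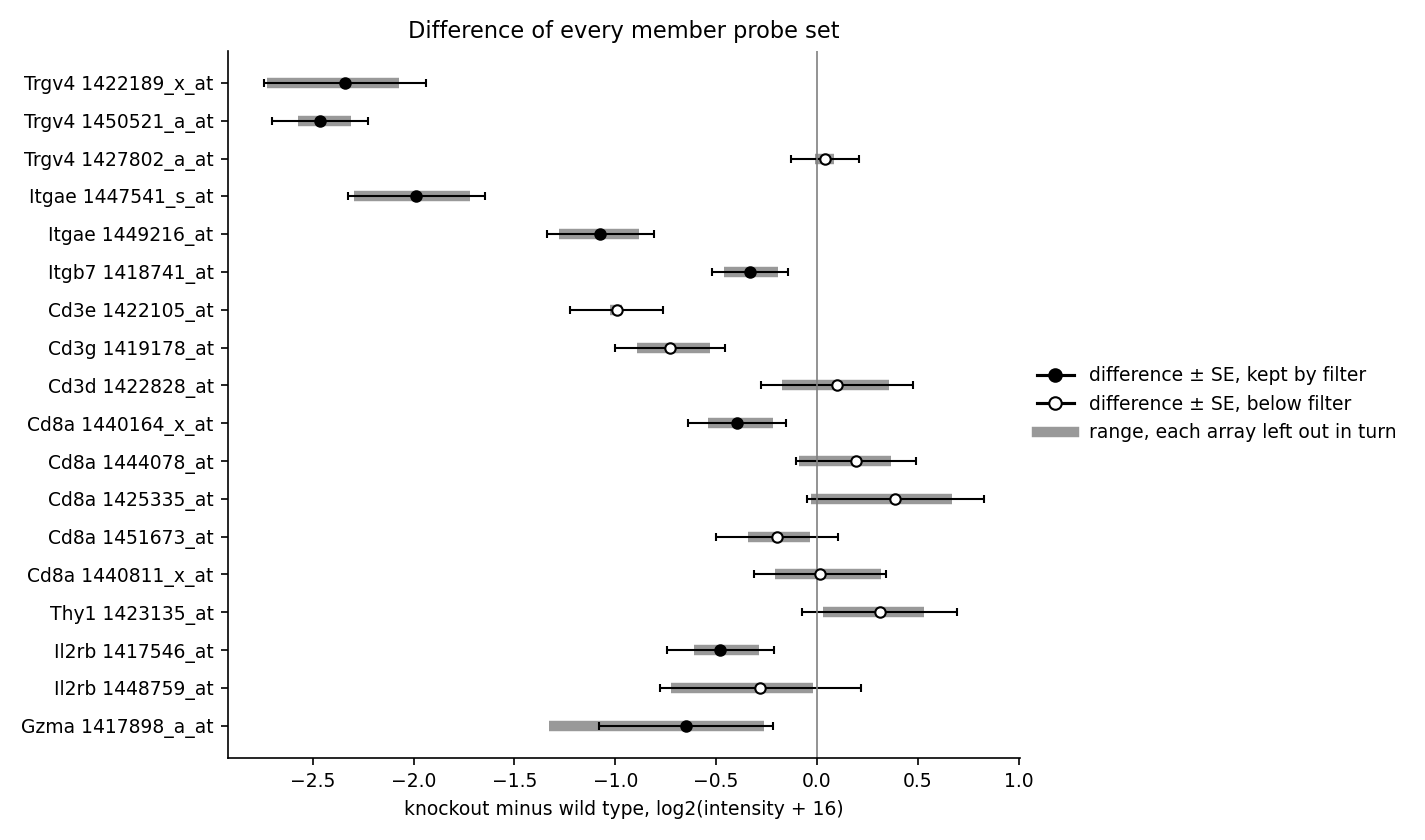
Knockout minus wild type difference on log2(intensity + 16) for all 18 member probe sets, with limma's SE (filled, kept by the filter; open, below it, with the SE of the unfiltered fit). Grey bands give the range when each array is left out in turn; the bands of Trgv4 and Itgae stay below -0.8 apart from Trgv4 1427802_a_at, and that of Gzma runs from -1.33 to -0.26.

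Profiles over the 7 arrays were compared by the root mean square difference of log2 levels after each probe set was centred on its mean, a measure in log2 units that grows as profiles diverge. Nearest to Trgv4 1450521_a_at among 19579 named probe sets of other genes were Plek2 at 0.34, Rarres1 at 0.42, Slco4c1 at 0.43, Gdf3 at 0.48 and D030018L15Rik at 0.49. Its own second probe set stood at 0.45 and Itgae 1447541_s_at at 0.65, while Gzma was at 1.12 and Itgb7 at 1.09. For 1422189_x_at the nearest were Gdf3 at 0.23, Plek2 at 0.44, Ndufa4l2 at 0.49, Gcnt1 at 0.53 and Rarres1 at 0.60. Plek2, Gdf3 and Rarres1 were thus near both. The centring keeps the gap between the groups, so probe sets that fall by a like amount stand near each other. The log2 differences of these genes were -2.07, -2.24 and -1.78, against -0.33 for Itgb7. As low knockout values led to the choice of Trgv4 and Itgae, nothing is read from these distances or from those of Itgae below.

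Nearest to Itgae 1447541_s_at were Cyp2b10 at 0.18, Kif21a at 0.26, Map3k6 at 0.27, Gm11827 at 0.30 and D030018L15Rik at 0.30. Cyp2b10 encodes a drug-metabolizing enzyme, Kif21a a motor protein and Map3k6 a kinase. The other members were farther off, from 0.65 for Trgv4 1450521_a_at to 1.04 for Trgv4 1422189_x_at, with Gzma at 0.88 and Itgb7 at 1.02. The second Itgae probe set, 1449216_at, stood at 0.55, and it was nearer to Il2rb, at 0.51, while Itgb7 and Cd8a 1440164_x_at were also at 0.55. Its own 5 nearest genes, which the naming rule leaves out, included none of those near 1447541_s_at. None of the nearest genes named here is a member.

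**Figure D4:**
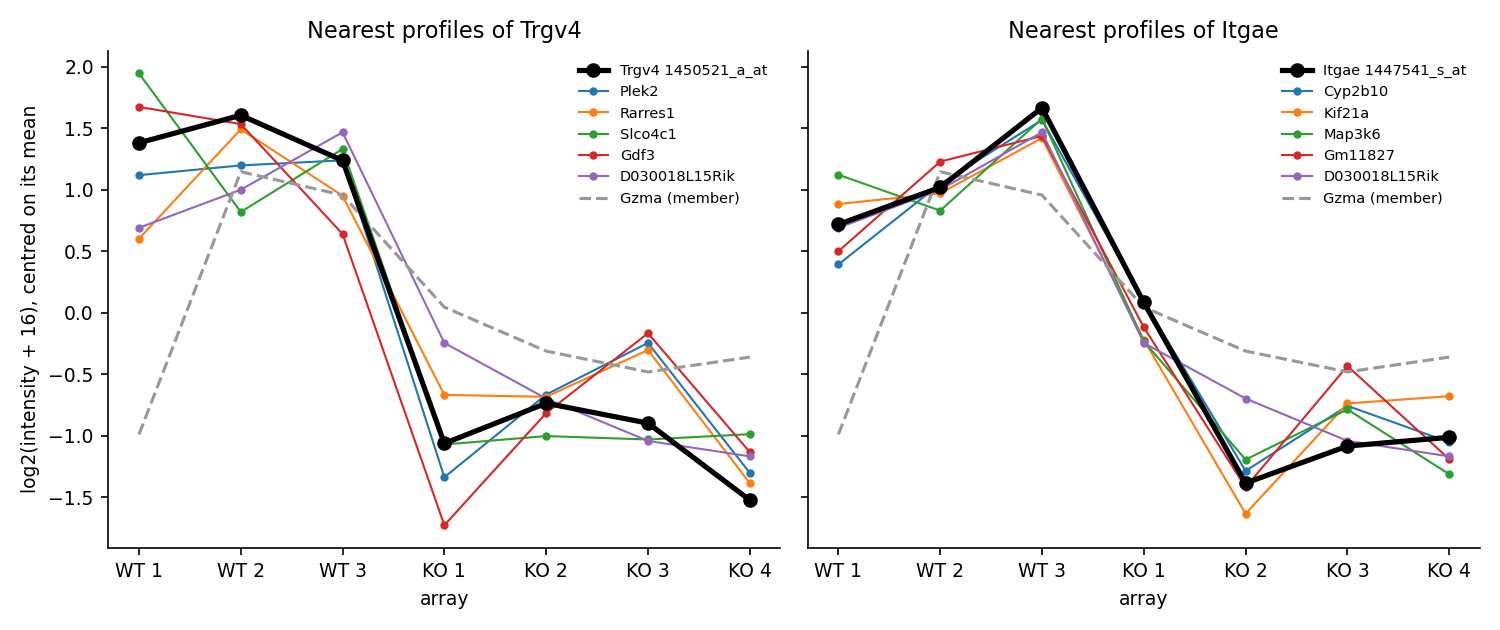
Level on log2(intensity + 16), centred on the mean of each probe set, across the 3 wild type (WT) and 4 knockout (KO) arrays for Trgv4 1450521_a_at and Itgae 1447541_s_at (black), their 5 nearest genes (colours) and Gzma (dashed); arrays have no order and lines only join values of a gene. The nearest genes of Itgae share its highest value in WT 3, and Gzma is lowest in WT 1.

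Genes around these members were read from 17 lists, written with earlier results of these data known, that cover T cell pathways and markers of other cell types. Of 195 tested list genes, 8 were called by limma, 4.10% against 4.24% of all tested probe sets, with 2 higher and 6 lower in knockout. That share lies near the background. Under median scaling 4 were called, 3 higher and 1 lower, and under quantile normalization 3 were higher and 5 lower, so the split by direction depends on the scaling. Each gene is given by its brightest probe set.

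Of 30 genes of T cell receptor signalling 24 were measured and only 7 passed the filter. None was called by limma, and 2 had an unadjusted p under 0.05. Zap70, the kinase that binds the phosphorylated receptor complex, read 757.5 to 1092 in wild type and 143.6 to 588.6 in knockout. Its groups did not overlap, at a log2 difference of -1.43 ± 0.38 (SE; adjusted p = 0.0644 with limma). Its 2 other probe sets read between 4.3 and 74.5, with overlapping groups. Prkcq, a kinase downstream of the receptor, was at -0.57 (adjusted p = 0.213 with limma). The list's median was -0.41 against -0.03 over all tested probe sets, and 9 of its 24 measured genes stayed under 50 on every array. Summed levels of the 24 did not overlap, at 4812.5 to 5604.1 in wild type and 3431.1 to 4721 in knockout.

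Of 31 genes of gamma delta and innate-like T cells 12 were measured and 9 passed the filter, and 1 of the 9 fell. Zbtb16, a transcription factor of innate-like T cells that is also a glucocorticoid target, fell from 4069 ± 591 (SD, n = 3) to 2031 ± 668 (SD, n = 4), a log2 difference of -1.04 ± 0.23 (SE; adjusted p = 0.0392 with limma). Its second tested probe set in brightness was at -1.08 and also called, and the third was at -0.24. Of the runs with 1 array left out, Zbtb16 stayed called only in that without knockout 1 (adjusted p over all alternatives from 0.0104 to 0.163). The list's median was 0.09, and 6 of the 9 leaned higher. Trgv1, the only gamma or delta chain segment of this list that was measured, lay below the filter. The median thus holds no receptor segment.

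Of 12 tested genes of the early T lineage, 1 rose. Zbtb7b, a transcription factor that directs cells to the CD4 lineage, rose from 510 ± 23.1 (SD, n = 3) to 888 ± 145 (SD, n = 4), at 0.77 ± 0.16 (SE; adjusted p = 0.0326 with limma, from 0.0316 to 0.151 over the alternatives). It lost the call without any 1 wild type array and without knockout 4. The dimmer probe set of Zbtb7b was at 0.62 with overlapping groups and was not called (adjusted p = 0.252 with limma). The 13 tested genes of interleukin 2 and 15 receptor signalling had a median of -0.23, and 8 of them leaned lower. An unadjusted limma p under 0.05 was reached by 4 lower genes and 1 higher. Among the 13, Mcl1, a survival factor of the Bcl2 family, fell by 0.54 ± 0.12 on the log2 scale (SE; adjusted p = 0.0442 with limma). It was called in none of the runs with 1 array left out (adjusted p over all alternatives from 0.0370 to 0.177). Its 5 other probe sets were not called, at -0.37 to -0.07. Summed levels of the 18 measured genes of this list did not overlap, at 17681 to 20376 in wild type and 14686 to 16083 in knockout. Il15ra, the alpha chain that presents interleukin 15 to Il2rb, leaned higher on both probe sets, at 0.98 and 0.75 with separate groups (adjusted p = 0.0508 and 0.0933 with limma), and was named after its values were seen.

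Among 14 tested genes of integrins, homing and retention and 14 of TGF beta signalling, the pathway known to induce Itgae, none was called by limma. An unadjusted p under 0.05 was reached by 2 higher genes of the first list, and by 4 lower and 1 higher of the second. Klf2 was at 0.70 and Cxcl16 at 0.42 (adjusted p = 0.132 and 0.212 with limma). Skil and Tgfbr3 were at -0.49 and -0.42 (adjusted p = 0.0915 and 0.127 with limma). Medians of both lists were close to 0, at 0.08 and -0.09.

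Cytotoxic and natural killer cell genes were mostly dim: of 30 measured only 6 were tested, with 0 called by limma and 0 at an unadjusted p under 0.05. All 6 leaned lower, with a median of -0.27, also under both other scalings of the arrays. The granule proteoglycan gene Srgn was at -0.24 and Il18rap at -0.64 (adjusted p = 0.384 and 0.435 with limma). Gzmb, another granule protease, read 53.5 to 409.1 in wild type and 106.7 to 232.9 in knockout, and its lowest array was wild type 1, as for Gzma.

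Markers of other cells were read because Itgae, Itgb7 and Thy1 are not made by T cells alone. Mast cells also carry Itgb7 and some dendritic cells Itgae. Of 6 tested mast cell and basophil genes and 10 of dendritic cells, 0 were called by limma, with 0 and 5 at an unadjusted p under 0.05. Summed levels of the mast cell list ran from 1845 to 2517 in wild type and 1585 to 2128 in knockout. Those of the dendritic cell list ran from 26668 to 28836 and from 22463 to 26896, of which Cd24a, also abundant in red cell precursors, made up at least 80.7% on every array. With or without Cd24a the groups overlapped, and without it the sums were 4073 to 5501 and 3232 to 5198. The class II genes H2-Eb1 and H2-Ab1 were at -0.72 and -0.73 (adjusted p = 0.0784 and 0.121 with limma). Gata2 and Kit of the mast cell list were at -0.39 and -0.13 (adjusted p = 0.393 and 0.726 with limma). Their other tested probe sets were at -0.02 and 0.35, with overlapping groups, and neither was called. The part of these cells in the Itgae result was not tested.

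The pan-leukocyte list had 0 of 14 genes called by limma, 1 at an unadjusted p under 0.05, and a median of 0.03. Its sums overlapped, at 25955 to 32408 in wild type and 23141 to 35840 in knockout. Ptprc, the common leukocyte antigen, was at 0.37 and Laptm5 at -0.37 (adjusted p = 0.213 and 0.254 with limma). Other tested probe sets of Laptm5 were at -0.01 and 0.06, with overlapping groups. B cell genes had a median of 0.45, with 15 of 16 higher in knockout, 0 called by limma and 3 at an unadjusted p under 0.05. Ms4a1 and Spib were at 0.74 and 0.78 (adjusted p = 0.148 and 0.167 with limma). Under median and quantile scaling the list's median was 0.51 and 0.48. Among macrophage genes Cd14, the coreceptor for bacterial lipopolysaccharide, fell by 1.47 ± 0.28 on the log2 scale (SE; adjusted p = 0.0231 with limma, from 0.00803 to 0.119 over the alternatives), 1 of 17 tested. It lost the call without wild type 1 or 3 and without knockout 2 or 4.

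Red cell precursor genes were lower in 13 of 13 tested cases, or 12 under median scaling, with a median of -0.43 and sums that did not overlap, at 103741 to 121917 in wild type and 83568 to 93949 in knockout. An unadjusted limma p under 0.05 was reached by 11 of the 13. Trim10, Rhag and Slc4a1 fell, at -0.68, -0.49 and -0.39 (adjusted p = 0.0454, 0.0443 and 0.0412 with limma). Of the runs with 1 array left out, Trim10 stayed called only in that without knockout 1, Rhag without knockout 3 and Slc4a1 without knockout 2 or 3. The part of this shift in the values of the T cell genes was not tested. Among neutrophil genes 0 of 13 were called by limma, with 1 at an unadjusted p under 0.05, and Elane and Prtn3 were at -0.83 and -0.54 (adjusted p = 0.105 and 0.250 with limma). Of 10 genes of stem and progenitor cells Hlf rose by 1.16 ± 0.24 (SE; adjusted p = 0.0315 with limma, from 0.00663 to 0.140 over the alternatives), and it stayed called only without knockout 1 or 3 when 1 array was left out. The dimmer probe set of Hlf was at 0.72 with separate groups and was not called (adjusted p = 0.0902 with limma). Of 10 genes of fibroblasts and nerve, other sources of Thy1, 0 were called by limma and 1 had an unadjusted p under 0.05, with Gfap at -1.28 and Tagln at 1.28 (adjusted p = 0.189 and 0.289 with limma). Hepatocyte genes had 0 of 14 called by limma and 2 at an unadjusted p under 0.05, with Apob at 0.53 and Cebpa at 0.73 (adjusted p = 0.140 and 0.147 with limma).

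**Figure D5:**
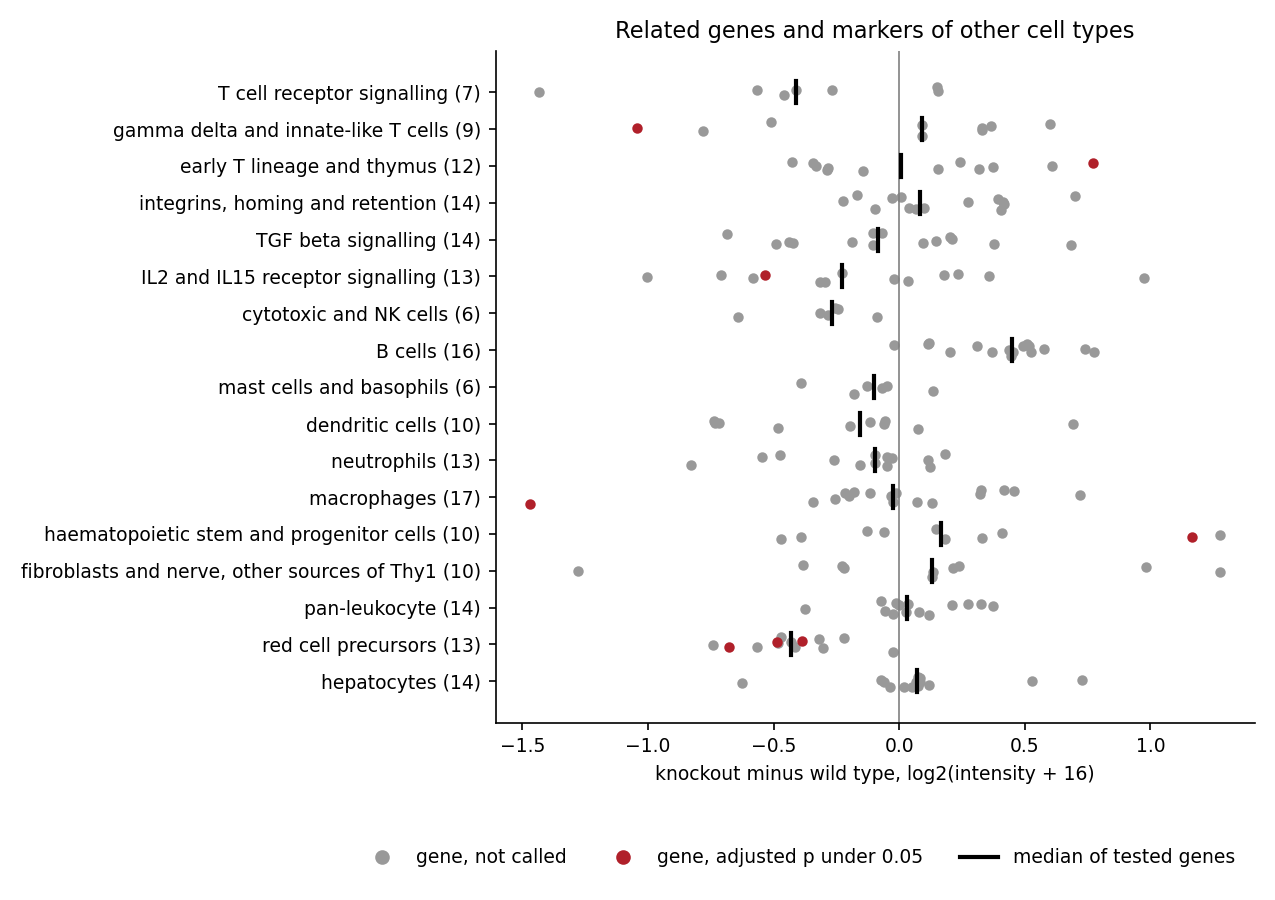
Knockout minus wild type difference on log2(intensity + 16) for the tested genes of 17 lists (number tested in brackets), with 1 point per gene, red where limma's adjusted p is under 0.05, and black bars at list medians. All 13 red cell precursor genes lie below 0, the B cell median is 0.45, and 8 genes in all are red.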

How the data were processed

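Intensities, 1 for each probe set and array, were used as deposited by the authors on a linear scale; the software GCOS was used per the submitters' processing notes, which give no version. How probes were summarised is not given in the sources. From them log2(intensity + 16) was computed, since array medians on that scale differed by less than 0.2. After 64 control probe sets were left out, 22518 with a mean above the median were compared with limma 3.58.1 in R 4.3.3 (lmFit, eBayes with trend), with genotype alone in the model, and a call needed an adjusted p (Benjamini-Hochberg) under 0.05. The step was tested on simulated data. For probe sets below the filter the SE comes from the fit without it. Symbols come from the platform annotation, in which 34945 probe sets had 1 symbol, 932 had several and 9160 had none; positions and sequences come from RefSeq, GRCm38.p6. The transcript of the targeted gene was not analysed here. Litter and scan batches were not used here. The number of arrays limits the precision. Plots were drawn with matplotlib 3.10.9.

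Members and lists were chosen with earlier results of these data known. The text names all members, in each list up to 4 called genes with separate groups, by smallest p, or else the 2 of smallest p, and the 5 nearest profiles; other genes were named after their values were seen. Of each list gene the brightest probe set was used. Alternatives changed the offset, array scaling, filter, variance trend or probe set choice, left out single arrays, or took the replicate number as a block.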

Additional observations from a re-analysis of the deposited data

Results flagged for a closer look

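In the 4 knockout livers, 2 of the 18 member probe sets had 1 array far from the rest, judged by its gap to the nearest other array as a share of the group's range on the log2 scale. For Itgb7 1418741_at this share was 0.918, with knockout 2 at 416.5 and the others at 311.1 to 318.7. For Il2rb 1448759_at it was 0.861, with knockout 3 at 93.6 and the others at 13.5 to 19.4. Both shares exceed Dixon's 95% critical value for 4 arrays, and chance alone marks about 1 in 20 groups.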

How the results depend on the processing

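The 955 calls over all tested probe sets became 584 with eBayes without a trend, 473 without the filter and 351 with the replicate block, and ran from 127 (without wild type 3) to 1006 (without knockout 1) when 1 array was left out. Of the calls 55.4% were higher in knockout, and 71.3% under median scaling. The 8 called list genes became 3, 4, 1 and 3 with eBayes without a trend, median scaling, no filter and the replicate block, and ran from 0 (without knockout 4 or wild type 3) to 10 (without knockout 3); the runs at 0 had 43 and 31 genes at an unadjusted limma p under 0.05. Same-numbered arrays did not deviate together (correlations of 0.09, -0.06 and 0.06), so the numbers are not taken as pairs; knockout 4 has no partner and adds nothing to the block fit. Among member probe sets 3 stayed called, or 4 with an offset of 64, quantile normalization or without knockout 1, 2 with the replicate block, where Itgae was lost, 2 without wild type 1, where Gzma was called, and 1 without wild type 2 or 3. Of 256 member differences under the alternatives 246 moved by less than the spread within groups, and none of the called probe sets changed sign. The mean of the Trgv4 probe sets was -1.59, because the one without signal enters it. Dim probe sets, all those of the Cd3 genes included, are limited by signal over background. The cause of these changes was not tested.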

Other observations

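A probe set outside the members, 1422188_s_at, is assigned by the annotation to Trgv4 and Trgv2 together, so no gene is named from it. It read 304.9, 426.6 and 282.4 in wild type and 1.9, 15.5, 49.5 and 18.2 in knockout, without overlap. Its mean lay below the filter.

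Among T cell genes too dim for the filter, Cd28, a costimulatory receptor, read 41.9 to 73.3 in wild type and 14.3 to 28.2 in knockout on 1 probe set, and 15.1 to 64.5 and 3.2 to 6.1 on the other. Il2ra, the alpha chain of the interleukin 2 receptor, read 38.9 to 45.3 and 6.5 to 23.8 on its brighter probe set, and overlapped on its dimmer one, at 18.6 to 28.6 and 13.2 to 30.9. Both genes were picked after their values were seen, so their separate groups are no test, and most of these values lie under 50.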
